A study of Mus musculus with 11 samples.

Results

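The genes described here are 8 that set where a natural killer (NK) cell goes: the sphingosine 1-phosphate (S1P) receptors S1pr1 and S1pr5, the transcription factor gene Klf2, and the chemokine receptors Cxcr3, Cxcr4, Cxcr6, Ccr2 and Cx3cr1. They were taken by symbol from the 24421 genes of the deposited count table, and all 8 were found and passed the filter on low counts. RNA was sequenced from 11 libraries of Ly49H+ NK cells sorted from spleen, in 4 groups by title: LDHA-deficient (KO) D2 with 3 libraries, wild-type (WT) D2 with 3, KO D0 with 3 and WT D0 with 2, numbered 2 and 3. Ly49H is an activating receptor that recognises a protein of mouse cytomegalovirus (MCMV), and LDHA is a subunit of lactate dehydrogenase, the enzyme between pyruvate and lactate. Per the labels, all groups share a C57BL/6 background, mixed bone marrow chimeras in which WT cells carry CD45.1 and KO cells CD45.2, and MCMV infection as the treatment. Cells were sorted as TCRb- CD3e- NK1.1+ DX5+ Ly49H+, and each sample is described as an individual mouse. The label for days after infection reads day 2 for all 11 libraries, so D0 and D2 stand here as terms of the titles, and whether the D0 mice were infected cannot be read from them. Libraries titled WT carry a genotype label with both genotypes in it and were grouped by title. The deleter, the age and the sex of the mice are not given in the sources used here, and neither is the deleted part of Ldha.

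S1P is abundant in blood and lymph and scarce inside tissue, and lymphocytes leave tissue by following that gradient through S1P receptors. S1PR1 serves T and B cells foremost, while NK cells also rely on S1PR5, whose gene needs the T-box factor T-bet in mouse NK cells. KLF2 activates S1pr1 in lymphocytes, and the activation antigen CD69 pulls S1PR1 off the cell surface. Among the chemokine receptors, CXCR4 holds NK cells in bone marrow through CXCL12, CXCR3 follows the interferon-induced ligands CXCL9 and CXCL10, and CCR2 and CX3CR1 serve recruitment into inflamed tissue and the circulation of mature cells. CXCR6 binds CXCL16 and is high on liver-resident lymphocytes.

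Total counts per library ran from 19452460 to 27992092. CPM is the unit in which each gene's counts are divided by the size of its library. For the gene levels given here that size was first multiplied by a TMM scaling factor, 0.860 to 1.213 over the 11 libraries. Without that factor, 3 counts, taken as the floor of detection, correspond to 0.107 to 0.154 CPM. That floor covers counting error only. Ldha, the targeted gene, lay between 101.4 and 114.6 CPM in KO D2 against 2753 to 3101 in WT D2, and between 91.1 and 103.8 CPM in KO D0 against 563 to 656 in WT D0. NK markers summed to between 10847 and 18890 CPM in the 11 libraries. T cell markers summed to between 14.2 and 31.4 CPM, with Cd3e at 0.279 to 0.995 CPM, and no library lacked the NK genes Ncr1 and Klra8. Transcripts with a GC-rich stretch (a window of 100 bases with 75% GC or more) lay lower than others in KO D2, by a mean of -0.48 ± 0.045 on the log2 scale (SD, n = 3) around each gene's overall mean, against 0.07 ± 0.20 in WT D2 (n = 3). The 3 KO D0 libraries gave 0.24 ± 0.12 and the 2 WT D0 libraries 0.23 ± 0.048. S1pr5 (79%) and Klf2 (86%) hold such a stretch, and the other 6 genes do not. The cause was not tested.

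At D2, S1pr1, S1pr5, Klf2, Cxcr3, Cx3cr1 and Cxcr4 had fallen relative to D0 in both genotypes and Cxcr6 had risen in both, while Ccr2 fell in WT. A gene was called at an adjusted p under 0.05 by edgeR's quasi-likelihood test over 13711 genes. In KO cells 1 of the 8 was higher and 6 were lower at D2 than at D0, where 61.4% of all tested genes were called (27% higher, 34.5% lower). In WT cells 1 was higher and 7 were lower, where 53.5% of all tested genes were called (27.5% higher, 26% lower). The median log2 fold change of the 8 was -2.19 in KO and -2.36 in WT, against -0.20 and -0.07 over all tested genes. The D2 and D0 ranges of these called genes did not overlap in either genotype, a state reached by 67% of all tested genes in KO and 68.5% in WT. The RNA came from sorted populations, so fewer cells that express a gene and less RNA per cell cannot be told apart.

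**Figure D1:**
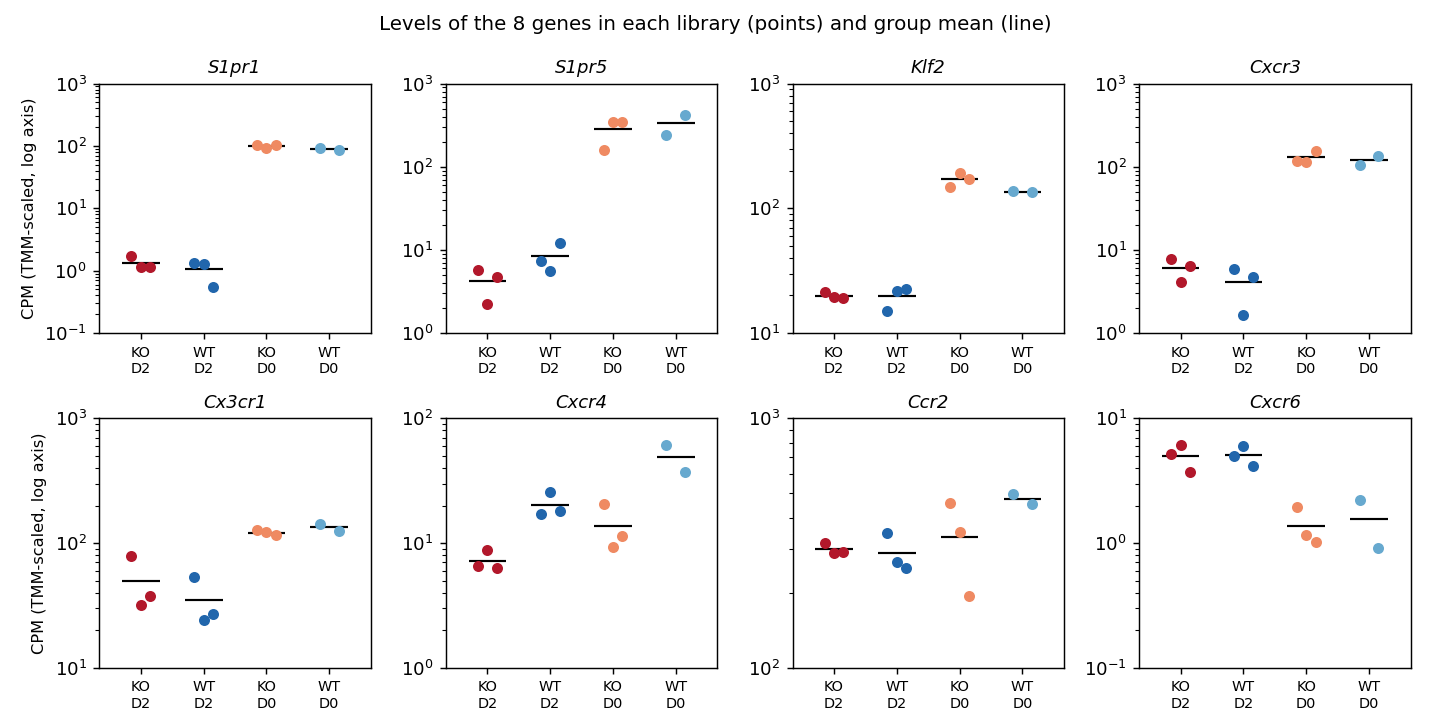
CPM of the 8 genes in each library on log axes, 1 panel per gene, with KO and WT side by side for D2 and for D0; points are libraries and lines are group means. S1pr1 sits between 0.54 and 1.74 CPM in the 6 D2 libraries and between 85.0 and 103.5 CPM in the 5 D0 libraries.

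The egress receptors showed the steepest falls. S1pr1 (Entrez 13609, chromosome 3, 115710433 to 115715055, mm10) had 1.74, 1.14 and 1.13 CPM in KO D2 libraries, against 103.5, 92.4 and 102.7 CPM in KO D0 libraries. In WT it had 1.34, 1.27 and 0.54 CPM at D2, against 91.9 and 85.0 CPM at D0. All 6 D2 libraries were thus near the low end, with 24 to 34 counts in KO and 13 to 28 in WT, which is above the floor of 3 counts. S1pr1 was 74.6-fold lower at D2 than at D0 in KO (log2 fold change -6.22, SE 0.26, adjusted p = 2.8e-09) and 85.0-fold lower in WT (-6.41, SE 0.27, adjusted p = 5.7e-09). It ranked at place 37 by p among the 13711 tested genes in KO and at place 22 in WT.

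S1pr5 (Entrez 94226, chromosome 9, 21242917 to 21248443) had 5.68, 2.23 and 4.75 CPM in KO D2 libraries, against 157.0, 347.4 and 346.2 CPM in KO D0 libraries. WT libraries had 7.32, 5.61 and 12.3 CPM at D2, against 240.8 and 422.9 CPM at D0. Every D2 library lay far below every D0 library, although the lowest D0 library of each genotype (KO replicate 1, WT replicate 2) stood well below the others. The fall was 67.3-fold in KO (log2 fold change -6.07, SE 0.46, adjusted p = 2.3e-07) and 39.4-fold in WT (-5.30, SE 0.45, adjusted p = 8.2e-07). With a per-library offset for the GC-rich stretch, the KO value was -5.37. S1pr5 shares 51 exon bases with Gm48303 on the opposite strand, and no source says that the counting used strand.

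Klf2 (Entrez 16598, chromosome 8, 72319062 to 72321654) fell less than S1pr1, one of the genes it activates. It had 21.3, 19.4 and 19.1 CPM in KO D2 libraries, against 149.0, 191.4 and 170.7 CPM in KO D0 libraries. In WT it had 14.99, 21.8 and 22.5 CPM at D2, against 138.0 and 134.3 CPM at D0. The day groups stood apart with a narrow spread inside each. Klf2 was 8.55-fold lower at D2 in KO (log2 fold change -3.10, SE 0.16, adjusted p = 1.8e-08) and 6.88-fold lower in WT (-2.78, SE 0.17, adjusted p = 7.0e-08). With an offset for mean transcript GC the KO value was -2.04 and the WT value -2.43, both still called.

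Cxcr3 (Entrez 12766, chromosome X, 101731535 to 101734147), the receptor for CXCL9 and CXCL10, had 7.67, 4.08 and 6.38 CPM in KO D2 libraries, against 117.8, 113.9 and 156.3 CPM in KO D0 libraries. WT libraries had 5.93, 1.63 and 4.76 CPM at D2, against 104.9 and 135.7 CPM at D0. No D2 library came near a D0 library. Cxcr3 was 21.4-fold lower at D2 in KO (log2 fold change -4.42, SE 0.37, adjusted p = 4.7e-07) and 29.4-fold lower in WT (-4.88, SE 0.39, adjusted p = 4.9e-07). Its ligand gene Cxcl10 moved the other way in the same cells, with a mean of 1861 CPM in KO D2 against 8.71 in KO D0, and 1486 CPM in WT D2 against 7.42 in WT D0 (log2 fold changes 7.73 and 7.65).

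The promoters of 4 of these genes are shown. Klf2, S1pr5 and Cxcr3 were among the 4 with the largest falls, and Cxcr4 was the one called between genotypes in the main fit. Each promoter window is the 250 bases before the annotated start on the gene's own strand, from RefSeq on GRCm38.p6, the build of mm10. S1pr1, with the largest fall in both genotypes, had no window in that RefSeq set and was not searched. Capitals mark CACCC, letters common to sites of Kruppel-like factors, or its reverse complement GGGTG.
Klf2, chr8:72318812-72319061, plus strand: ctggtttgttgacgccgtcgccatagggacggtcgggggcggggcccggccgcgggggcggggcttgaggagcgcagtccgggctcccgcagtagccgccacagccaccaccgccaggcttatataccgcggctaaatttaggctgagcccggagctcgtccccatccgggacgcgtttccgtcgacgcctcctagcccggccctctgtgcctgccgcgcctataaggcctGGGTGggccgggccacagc
S1pr5, chr9:21248444-21248693, minus strand: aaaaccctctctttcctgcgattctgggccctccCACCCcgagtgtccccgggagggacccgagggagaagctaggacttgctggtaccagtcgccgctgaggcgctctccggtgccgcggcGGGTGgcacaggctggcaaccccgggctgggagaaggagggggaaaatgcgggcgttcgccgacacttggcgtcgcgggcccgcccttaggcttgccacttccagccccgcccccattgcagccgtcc
Cxcr3, chrX:101734148-101734397, minus strand: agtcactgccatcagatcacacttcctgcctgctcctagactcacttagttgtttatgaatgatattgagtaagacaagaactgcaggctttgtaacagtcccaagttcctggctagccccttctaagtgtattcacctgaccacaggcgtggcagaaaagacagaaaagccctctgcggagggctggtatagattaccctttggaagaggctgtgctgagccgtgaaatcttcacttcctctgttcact
Cxcr4, chr1:128592300-128592549, minus strand: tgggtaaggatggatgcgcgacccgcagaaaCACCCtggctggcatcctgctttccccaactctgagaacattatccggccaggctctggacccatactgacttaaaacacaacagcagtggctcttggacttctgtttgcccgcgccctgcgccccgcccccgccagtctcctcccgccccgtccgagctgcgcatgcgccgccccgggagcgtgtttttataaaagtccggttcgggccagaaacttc
The Klf2 window holds 1 match and has 71.2% GC, the S1pr5 window holds 2 matches and has 69.2% GC, and the Cxcr4 window holds 1. The Cxcr3 window holds none of these letters and has 48.0% GC. Of 32851 RefSeq windows of that length 52.0% hold CACCC or GGGTG, and the median window has 52.4% GC. The T-box letters TCACACC, or GGTGTGA on the other strand, are in 3.33% of all windows and in none of the 7 windows that matched a member. Among the 7, the Cx3cr1 window holds 1 CACCC match and the Ccr2 and Cxcr6 windows hold none. The Ccr2 window (chr9:124101933-124102182) lies inside the gene span used here (124101918 to 124109140), so the bases before that span were not searched. A match describes letters and is not evidence of a bound site.

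The other chemokine receptors moved by smaller amounts. Cx3cr1 (Entrez 13051, chromosome 9, 120048683 to 120068296), the receptor for fractalkine, had 79.4, 31.7 and 37.5 CPM in KO D2 libraries, against 127.0, 122.1 and 115.1 CPM in KO D0 libraries. In WT it had 53.6, 24.3 and 27.2 CPM at D2, against 143.0 and 125.6 CPM at D0. Replicate 1 was the highest of the D2 libraries in both genotypes, and it still lay below every D0 library. Cx3cr1 was 2.45-fold lower at D2 in KO (log2 fold change -1.29, SE 0.33, adjusted p = 0.0044) and 3.84-fold lower in WT (-1.94, SE 0.36, adjusted p = 0.00058). Cx3cr1 is also high in monocytes. Of 10 monocyte and macrophage markers, 1 was called higher and 2 lower at D2 in KO (61.4% of all tested genes called), and 1 higher and 4 lower in WT (53.5%). Their median log2 fold change was -0.16 in KO and -0.51 in WT, against -0.20 and -0.07 over all tested genes. Lyz2 and Csf1r had lower means at D2, Lyz2 at a mean of 4.54 CPM in KO D2 and 4.91 in WT D2 against 19.6 in KO D0 and 31.1 in WT D0, and Csf1r at 1.27 CPM in KO D2 and 1.65 in WT D2 against 5.12 in KO D0 and 8.55 in WT D0. Fcgr1 had higher means at D2, at 0.47 CPM in KO D2 and 0.712 in WT D2 against 0.027 in KO D0 and 0.064 in WT D0. The 10 markers summed to between 259 and 436 CPM in D2 libraries and between 343 and 512 in D0 libraries. Most of it was Ly6c2, at a mean of 340 CPM in KO D2, 260 in WT D2, 344 in KO D0 and 394 in WT D0. The sum thus mainly follows Ly6c2 and says little about the other markers. No marker was at 0 in every library. The part of the 10 markers in the result was not tested. Cx3cr1 also shares 78 exon bases with the antisense gene Gm33858.

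Cxcr4 (Entrez 12767, chromosome 1, 128588199 to 128592299) had 6.60, 8.72 and 6.33 CPM in KO D2 libraries, against 20.6, 9.28 and 11.3 CPM in KO D0 libraries. WT libraries had 17.2, 25.5 and 18.2 CPM at D2, against 61.6 and 37.1 CPM at D0. The day groups did not overlap in either genotype, by a narrow gap in KO. Cxcr4 was 1.90-fold lower at D2 in KO (log2 fold change -0.93, SE 0.30, adjusted p = 0.0173) and 2.43-fold lower in WT (-1.28, SE 0.32, adjusted p = 0.0041). The KO call was lost without KO D0 replicate 1 (-0.57, adjusted p = 0.0702) or KO D2 replicate 3 (-0.90, adjusted p = 0.0501), and the WT call without WT D0 replicate 2 (-0.93, adjusted p = 0.0613).

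Cxcr6 (Entrez 80901, chromosome 9, 123806477 to 123811754) was the one gene of the 8 that rose. It had 5.17, 6.07 and 3.71 CPM in KO D2 libraries, against 1.95, 1.15 and 1.02 CPM in KO D0 libraries. In WT it had 5.03, 5.97 and 4.18 CPM at D2, against 2.23 and 0.917 CPM at D0. All D2 libraries lay above all D0 libraries, where the gene had 22 to 52 counts in KO and 29 to 69 in WT. Cxcr6 was 3.60-fold higher at D2 in KO (log2 fold change 1.85, SE 0.36, adjusted p = 0.00063) and 3.21-fold higher in WT (1.68, SE 0.40, adjusted p = 0.0035). The WT value was 1.13 (adjusted p = 0.0518) without WT D0 replicate 3 and 2.39 without WT D0 replicate 2. Cxcr6 lies inside Fyco1 on the opposite strand with 0 shared exon bases, and Fyco1 itself was not called in KO (log2 fold change 0.28, adjusted p = 0.0625) or in WT (-0.08). Cxcr6 is also a marker of group 1 innate lymphoid cells, in a list of 8 genes that includes Cxcr6 itself. In each genotype 2 of the list, Cxcr6 among them, were called higher and 4 lower at D2. Over all tested genes 61.4% were called in KO and 53.5% in WT. The list summed to 53.5 to 59.4 CPM in KO D2, 48.8 to 64.2 in WT D2, 43.0 to 55.1 in KO D0 and 38.1 to 52.1 in WT D0. Most of the D2 sum was Tnfsf10, at a mean of 43.1 CPM in KO D2 and 44.3 in WT D2, above its D0 means. Apart from Cxcr6 and Tnfsf10, every gene of the list had a lower mean at D2 in both genotypes. Rora, for example, had 2.801 CPM in KO D2 and 2.946 in WT D2 against 15.62 in KO D0 and 12.81 in WT D0. The part of that list in the result was not tested.

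Ccr2 (Entrez 12772, chromosome 9, 124101918 to 124109140) had 317.4, 289.4 and 292.5 CPM in KO D2 libraries, against 456.4, 350.8 and 193.7 CPM in KO D0 libraries. In WT it had 345.5, 265.2 and 251.6 CPM at D2, against 497.4 and 452.2 CPM at D0. The KO day groups overlapped, because KO D0 replicate 3 was the lowest of all 11 libraries, and the WT day groups did not. The log2 fold change was -0.15 in KO (SE 0.23, adjusted p = 0.591) and -0.72 in WT (SE 0.26, adjusted p = 0.0315), a 1.65-fold fall. The part of the monocyte and macrophage markers given under Cx3cr1 was not tested for Ccr2 either. Without KO D0 replicate 3 the KO value was -0.49 (adjusted p = 0.0136), and with the offset for mean GC -0.44 (adjusted p = 0.00604). The WT call was lost without WT D0 replicate 2 (adjusted p = 0.0989) or replicate 3 (0.0543) and without WT D2 replicate 2 (0.0808) or replicate 3 (0.0716).

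**Figure D2:**
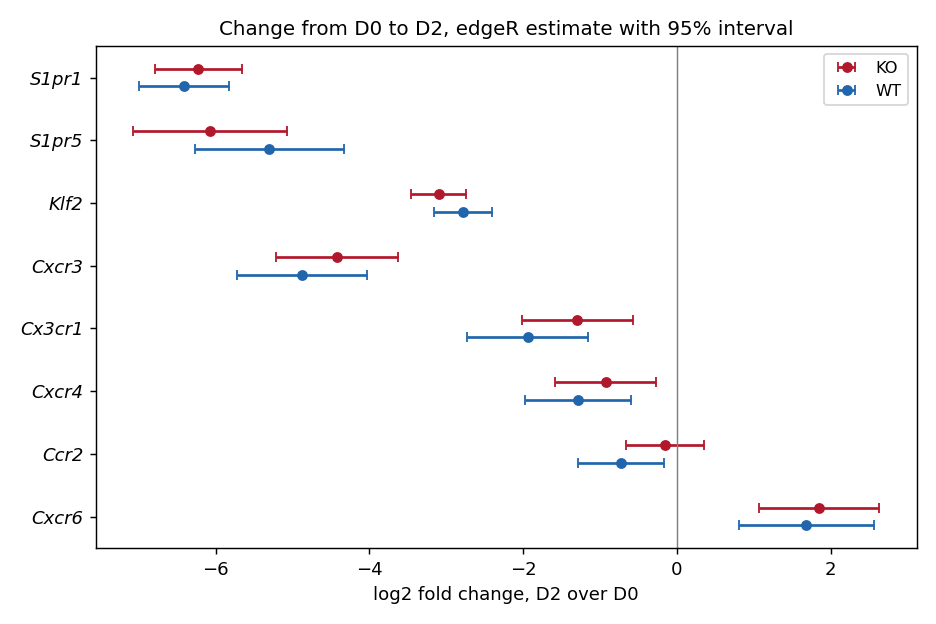
Log2 fold change of D2 over D0 for the 8 genes, KO above WT for each gene, with 95% intervals from the edgeR fit of 11 libraries. S1pr1 and S1pr5 lie farthest left, between -6.41 and -5.30, and Cxcr6 lies right of 0 in both genotypes.

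Whether the change by day differed between KO and WT was tested as the difference of the 2 log2 fold changes. None of the 8 was called (adjusted p from 0.476 to 0.935), and none had an unadjusted p under 0.05 in edgeR, while 5.84% of all tested genes were called and 17.7% had an unadjusted p under 0.05. DESeq2 also called none of them. With the replicate number as a block within each day 3 were called, where 19.1% of all tested genes were called. They were Cx3cr1 (0.65, adjusted p = 0.00636), Ccr2 (0.94, adjusted p = 0.0114) and S1pr5 (-1.13, adjusted p = 0.0388). WT D0 has no replicate 1, so in that block KO D0 replicate 1 adds nothing to the genotype difference at D0. The D0 part of these values rests on replicates 2 and 3, and whether those numbers mark pairs is undecided. A block shared across days called 0 of the 8, and the block within days with the offset for the GC-rich stretch called 1. The D2 and D0 comparisons and this difference use the same libraries, so they are not separate evidence. Without the block, the 95% interval of the difference ran from -0.60 to 0.98 for S1pr1 on the log2 scale, from -2.03 to 0.48 for S1pr5, from -0.81 to 0.19 for Klf2 and from -0.62 to 1.53 for Cxcr3. For Cxcr4 it ran from -0.60 to 1.31, for Cxcr6 from -0.98 to 1.31, for Ccr2 from -0.19 to 1.33 and for Cx3cr1 from -0.41 to 1.71. Differences of up to 1 log2 unit or more therefore lay inside the interval of each gene except S1pr1 and Klf2.

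Between genotypes, Cxcr4 was the one gene of the 8 past the threshold in the main fit, which has no replicate block. It was lower in KO cells under both titles. The block brought further genes of the 8 past the threshold, as given below. At D2 0 of the 8 were higher and 1 was lower in KO, where 16.1% of all tested genes were called (1.61% higher, 14.5% lower). That 14.5% mixes unlike classes: 33.1% of genes with a GC-rich stretch were called lower, against 2.7% of those without, the class of Cxcr4. At D0 again 0 of the 8 were higher and 1 was lower, where 0.153% of all tested genes were called (0.0948% higher, 0.0583% lower). The median log2 fold change of the 8 was 0.04 at D2 and -0.17 at D0, against 0.01 and 0.02 over all tested genes. Cxcr4 averaged 7.22 ± 1.31 CPM in KO D2 against 20.3 ± 4.53 in WT D2 (SD, n = 3 each), or 35.6% of the WT level, with a log2 fold change of -1.49 (SE 0.30, 95% interval -2.15 to -0.83, adjusted p = 0.00403). It averaged 13.7 ± 6.03 CPM in KO D0 (n = 3) against 49.3 ± 17.3 in WT D0 (n = 2), or 27.8% of the WT level, with a log2 fold change of -1.84 (SE 0.32, 95% interval -2.54 to -1.15, adjusted p = 0.0483). Every KO library lay below every WT library of its day, and groups that did not overlap, in either direction, were seen for 33.8% of all tested genes at D2 and 16.5% at D0. The D2 call held without any 1 library (adjusted p up to 0.0245), whereas the D0 call was lost without any 1 of 8 of the 11 libraries (log2 fold change -2.28 to -1.46 over all 11, adjusted p up to 0.351). It was also lost with a filter of at least 5 CPM (-1.83, adjusted p = 0.104) and with the D0 libraries alone (-1.88, adjusted p = 0.627). Cxcr4 lies 9.47 Mb from Ptprc, the CD45 gene whose alleles distinguish KO from WT donors, so an effect of the donors' chromosome 1 and one of LDHA loss cannot be told apart.

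**Figure D3:**
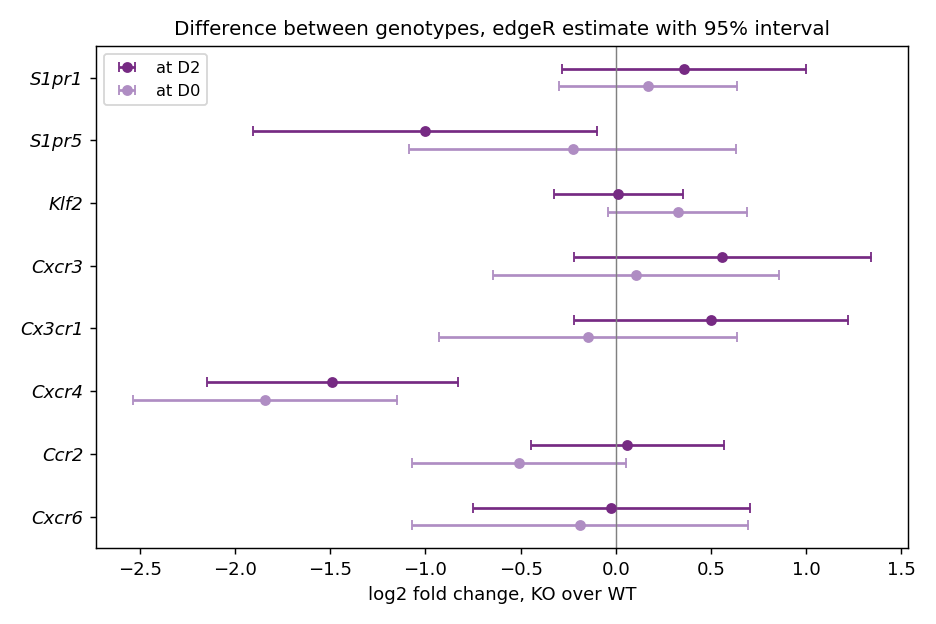
Log2 fold change of KO over WT for the 8 genes, D2 above D0 for each gene, with 95% intervals. The intervals come from the edgeR fit of 11 libraries without the replicate block and are not adjusted for the number of genes. The Cxcr4 intervals lie left of 0 under both titles (-2.15 to -0.83 at D2 and -2.54 to -1.15 at D0).

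S1pr5 averaged 4.22 ± 1.79 CPM in KO D2 against 8.40 ± 3.45 in WT D2 (SD, n = 3 each). KO replicate 1, at 5.68 CPM, lay above WT replicate 2, at 5.61 CPM, so the groups overlapped. The log2 fold change was -1.0 (SE 0.42, unadjusted p = 0.0327, adjusted p = 0.144). With the replicate number as a block, it was -1.01 (adjusted p = 0.0133), and with the block and an offset for the GC-rich stretch -0.40 (adjusted p = 0.184). At D0 S1pr5 averaged 283.6 ± 109.6 CPM in KO (n = 3) against 331.9 ± 128.7 in WT (n = 2), a log2 fold change of -0.23 (95% interval -1.09 to 0.63).

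S1pr1 averaged 1.34 ± 0.35 CPM in KO D2 against 1.05 ± 0.445 in WT D2 (log2 fold change 0.36, 95% interval -0.28 to 1, adjusted p = 0.534). At D0 it averaged 99.5 ± 6.21 CPM in KO against 88.4 ± 4.89 in WT (0.17, 95% interval -0.30 to 0.64). Every KO library lay just above every WT library, and D0 groups that did not overlap, in either direction, were seen for 16.5% of all tested genes. Neither S1pr1 value passed the test, and the S1pr1 intervals leave room for differences of either sign.

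Klf2 averaged 19.9 ± 1.221 CPM in KO D2 against 19.7 ± 4.14 in WT D2, a log2 fold change of 0.01 (95% interval -0.33 to 0.35, adjusted p = 0.982). With the offset for mean transcript GC it was 0.59 (adjusted p = 0.00666), and with the offset for the GC-rich stretch 0.38 (adjusted p = 0.0681, or 0.0297 with the replicate block). At D0 it averaged 170.4 ± 21.2 CPM in KO against 136.1 ± 2.63 in WT (0.32, 95% interval -0.04 to 0.69, adjusted p = 0.999). The groups again did not overlap, a state seen in either direction for 16.5% of all tested genes at D0. The level of Klf2 in KO D2 relative to WT D2 thus depends on the handling of GC.

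The replicate block brought Cxcr3 and Cx3cr1 past the threshold at D2 as well. Cxcr3 averaged 6.04 ± 1.82 CPM in KO D2 against 4.11 ± 2.22 in WT D2 (SD, n = 3 each), with a log2 fold change of 0.56 (adjusted p = 0.393) that was 0.62 with the block (adjusted p = 0.022). Cx3cr1 averaged 49.5 ± 25.99 CPM in KO D2 against 35.0 ± 16.2 in WT D2, with a log2 fold change of 0.50 (adjusted p = 0.41), or 0.47 with the block (adjusted p = 0.00202). In both genes each KO library lay above the WT library of the same number, while the groups as a whole overlapped. With the block 4 of the 8 were called at D2, 2 higher and 2 lower, where 25.1% of all tested genes were called.

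Without the block, Cxcr6 and Ccr2 did not pass the test between genotypes. Cxcr6 averaged 4.98 ± 1.19 CPM in KO D2 against 5.06 ± 0.895 in WT D2 (log2 fold change -0.02, 95% interval -0.75 to 0.70). Ccr2 averaged 299.8 ± 15.3 CPM in KO D2 against 287.4 ± 50.8 in WT D2 (0.06, 95% interval -0.45 to 0.57). At D0 Ccr2 averaged 333.6 ± 132.2 CPM in KO against 474.8 ± 32.0 in WT (-0.51, 95% interval -1.07 to 0.05, adjusted p = 0.999).

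Ordered by mean CPM per kilobase of transcript, the 8 genes changed places between the title days. At D2 Ccr2 led with 52.3 ± 2.68 CPM per kb in KO and 50.2 ± 8.86 in WT, apart from the next gene in both. In KO D2 Cx3cr1 (11.03 CPM per kb) and Klf2 (10.8) followed with overlapping ranges, then Cxcr4 (3.999), Cxcr3 (3.49), Cxcr6 (2.61) and S1pr5 (1.69), each overlapping its neighbour in that run. In WT D2 Cxcr4 (11.2), Klf2 (10.7) and Cx3cr1 (7.80) overlapped in turn, as did S1pr5 (3.36), Cxcr6 (2.65) and Cxcr3 (2.37). S1pr1 was last at D2, with 0.44 CPM per kb in KO and 0.345 in WT, apart from the gene above it. At D0 S1pr5 led, with 113.4 CPM per kb in KO and 132.8 in WT. In KO D0 S1pr5, Klf2 (92.3), Cxcr3 (74.7), Ccr2 (58.2) and S1pr1 (32.7) overlapped each with the next, and Cx3cr1 (27.0) and Cxcr4 (7.61) stood apart below them. In WT D0 Ccr2 (82.9), Klf2 (73.7) and Cxcr3 (69.5) came after S1pr5, and Cx3cr1 (29.9), S1pr1 (29.0) and Cxcr4 (27.3) overlapped each with the next. Cxcr6 was last at D0, with 0.72 CPM per kb in KO and 0.825 in WT.

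Some other genes followed the members closely across the 11 libraries, measured as the root mean square difference between centred log2 CPM values among 9063 candidates of 5 CPM or more on average. For S1pr1, whose own spread was 3.15, Sgsh and Slc26a11 were nearest at 0.55 each. S1pr5 (own spread 2.89) was nearest to Tbxa2r (0.41) and Cpne7 (0.49). Klf2 (1.49) was nearest to Dcxr (0.16) and Fam53b (0.19), and Cxcr3 (2.42) to Eya2 and Fam189b (0.32 each). Cxcr6 (0.97) was nearest to Rel (0.21) and Gdap10 (0.22), Cx3cr1 (0.96) to Insl6 (0.16) and Gramd1c (0.19), and Ccr2 (0.39) to Crbn and Zfp944 (0.12 each). Cxcr4 (0.99) had the poorest matches for its spread, Tmem30a (0.56) and Eif5a2 (0.57). These are descriptions of 11 libraries dominated by the split between title days.

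Of the other genes for S1P receptors and S1P handling, 15 of 16 were tested, with 2 higher and 4 lower at D2 than at D0 in KO and 1 higher and 4 lower in WT. Over all tested genes 61.4% were called in KO and 53.5% in WT, and the share of this list was below both. Between genotypes 0 were called at D2, against 16.1% of all tested genes, and 0 at D0. S1pr4, the receptor shared by most leukocytes, fell to a mean of 13.0 CPM in KO D2 against 83.2 in KO D0 (log2 fold change -2.68) and to 11.2 CPM in WT D2 against 79.3 in WT D0 (-2.82). S1pr2, a receptor that restrains migration, fell to 24.3 CPM in KO D2 against 48.2 in KO D0 (-0.99) and to 18.3 CPM in WT D2 against 52.2 in WT D0 (-1.52). The list's median log2 fold change by day was -0.32 in KO and -0.02 in WT, near the -0.20 and -0.07 of all tested genes.

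Among 23 other chemoattractant receptors and scavengers, of which 14 were tested, 2 were higher and 5 lower at D2 than at D0 in KO, and 3 higher and 3 lower in WT. Over all tested genes 61.4% were called in KO and 53.5% in WT, against 7 and 6 of the 14 receptors. These calls include trace genes with 0 counts in some library of the compared groups. They are Ccr3, Ccr10 and Ackr1 in KO, and Ccr4, Ccr10 and Ackr1 in WT. Their median log2 fold change was -0.19 in KO and -0.03 in WT, against -0.20 and -0.07 over all tested genes. Ccr7, the receptor for lymph node chemokines, rose to a mean of 18.6 CPM in KO D2 against 5.67 in KO D0 (log2 fold change 1.71) and to 11.2 CPM in WT D2 against 3.75 in WT D0 (1.58, adjusted p = 0.0234, and up to 0.147 without 1 library). Gpr183, the oxysterol receptor, had a log2 fold change of 0.97 in KO and 1.11 in WT, each called but with adjusted p up to 0.144 and 0.278 without 1 library. Cmklr1, the chemerin receptor of mature NK cells, fell by 1.44 in KO and by 1.57 in WT on the log2 scale. Between genotypes 2 of the 14, Ccr3 and Ptger4, were lower in KO at D2 and 0 were higher, a share near the 14.5% of all tested genes called lower. Ccr3 had 0 to 1 counts in KO D2 libraries and 1 to 18 in WT D2 libraries, around the floor of 3 counts. Ptger4, a receptor for prostaglandin E2, was lower by a log2 fold change of -1.68 (SE 0.33, adjusted p = 0.0034), or -1.23 with the offset for the GC-rich stretch (adjusted p = 0.0134). Its change by day also differed between genotypes (-1.85, adjusted p = 0.0471), a call lost with that offset (adjusted p = 0.134) and in 9 of the 11 fits without 1 library.

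Integrins and other adhesion genes, all 16 tested, had 2 higher and 13 lower at D2 than at D0 in KO and 2 higher and 12 lower in WT. Over all tested genes 27% were higher and 34.5% lower in KO, and 27.5% higher and 26% lower in WT. The list's median log2 fold change was -0.79 in KO and -1.09 in WT, against -0.20 and -0.07 over all tested genes. Cd69, whose product takes S1PR1 off the surface, rose to a mean of 713 CPM in KO D2 against 70.0 in KO D0 (log2 fold change 3.35, SE 0.36) and to 509 CPM in WT D2 against 62.2 in WT D0 (3.03, SE 0.41). Icam1 rose by 2.0 in KO and 1.47 in WT, while Selplg, the ligand of P-selectin, fell by 1.31 and by 1.48. Between genotypes at D2, 0 of the 16 were higher and 2 were lower in KO, a share near the 14.5% of all tested genes called lower. The integrin genes Itgb1 (-1.35, SE 0.24, adjusted p = 0.0015) and Itgb7 (-1.39, SE 0.29, adjusted p = 0.0050) were lower. Both hold a GC-rich stretch, and with the offset for it their values were -0.67 (adjusted p = 0.0155) and -1.07 (adjusted p = 0.0152).

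Genes that relay or switch off the receptors' signal, all 20 tested, had 2 higher and 12 lower at D2 than at D0 in KO and 2 higher and 10 lower in WT. Over all tested genes 34.5% were lower in KO and 26% in WT. The list's median log2 fold change was -0.70 in KO and -0.55 in WT. The arrestin gene Arrb1 fell by 3.57 in KO (-2.98 with the offset for the GC-rich stretch) and by 3.45 in WT on the log2 scale, and Rgs14 by 1.80 and 2.14, while Rgs16, which shortens G protein signals, rose by 2.85 and 1.83 and Rgs1 by 1.69 and 1.28. The Rgs1 call in WT had adjusted p up to 0.18 without 1 library. Between genotypes at D2, 2 were higher and 3 lower in KO, where 1.61% of all tested genes were higher and 14.5% lower. Gnai2, the inhibitory G protein subunit that chemokine receptors use most, was lower (-1.86, SE 0.32, adjusted p = 0.0013, or -1.33 with the offset for the GC-rich stretch). Arrb2 was lower by -0.51 (adjusted p = 0.0251), a call lost with that offset (-0.20, adjusted p = 0.425), and Rgs2 was higher (0.72, adjusted p = 0.0253, up to 0.114 without 1 library). The difference of the change by day between genotypes was called for Gnai2 (-1.96) and Arrb2 (-0.84), and with that offset for neither (adjusted p = 0.0907 and 0.234), nor in 9 of the 11 fits without 1 library.

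Of 19 transcription factor genes tied to Klf2 or to these receptors, 18 were tested, with 2 higher and 12 lower at D2 than at D0 in KO and 2 higher and 9 lower in WT. Over all tested genes 61.4% were called in KO (34.5% lower) and 53.5% in WT (26% lower). The list's median log2 fold change was -1.30 in KO and -0.78 in WT. Klf3, a repressor of the same family as Klf2, fell to a mean of 5.64 CPM in KO D2 against 93.2 in KO D0 (log2 fold change -4.05) and to 6.38 CPM in WT D2 against 81.4 in WT D0 (-3.67); with the offset for the GC-rich stretch the KO value was -3.27. Zeb2, a driver of NK cell maturation, fell to 129 CPM in KO D2 against 328 in KO D0 (-1.35) and to 110 CPM in WT D2 against 334 in WT D0 (-1.60), with a KO value of -0.59 (adjusted p = 0.00167) under that offset. Foxo1, which drives Klf2 in T cells, was not called by day in KO (-0.32, adjusted p = 0.103) or in WT (-0.16, adjusted p = 0.494). Between genotypes at D2, 4 of the 18 were lower in KO and 0 higher, where 14.5% of all tested genes were lower. Tbx21, which encodes T-bet, had a mean of 145 ± 20.6 CPM in KO D2 against 581 ± 255 in WT D2 (SD, n = 3 each; log2 fold change -2.0, SE 0.42, adjusted p = 0.0052), and -1.34 with the offset for the GC-rich stretch (adjusted p = 0.021). At D0 Tbx21 was not called between genotypes. Hif1a was lower in KO at D2 by -1.78 (adjusted p = 0.00089), or -1.10 with the offset. Map2k5, whose kinase acts upstream of KLF2 in endothelium, was lower by -0.84 (adjusted p = 0.0182), a call lost with the offset (-0.19, adjusted p = 0.516).

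**Figure D4:**
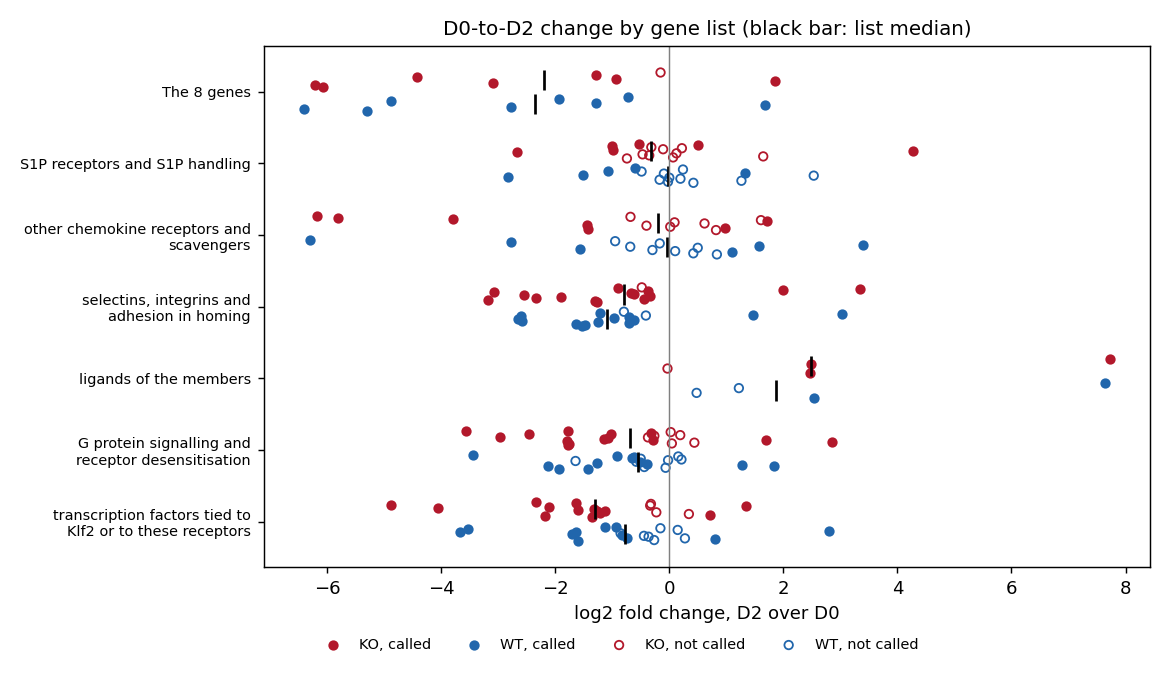
Log2 fold change of D2 over D0 for the 8 genes and the genes of 6 related lists, KO above WT within each list; filled points passed the test, open points did not, and black bars are list medians. The adhesion list shows 13 of 16 genes lower in KO and 12 of 16 lower in WT, and the 8 genes hold the farthest left median, at -2.19 in KO and -2.36 in WT.

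Genes for ligands of these receptors were mostly too low to test in the sorted cells, with 4 of 10 tested, 3 of them higher at D2 than at D0 in KO and 2 in WT, Cxcl10 among them. Over all tested genes 27% were higher in KO and 27.5% in WT. At D0 0 genes of the 6 related lists were called between KO and WT.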

How the data were processed

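The values are whole-number counts per Entrez ID as deposited by the authors, who per the submitters' processing notes used Trimmomatic 0.36, bcl2fastq 2.20.0.422, DESeq2 1.22.2 and Salmon 0.13.1 (listed once as 13.1), with mm10 as the build and no role or order given. They may be rounded estimates, in which the reads of near-identical genes can be split. Libraries were made from 2 ng of RNA with 12 and then 8 PCR cycles, per the labels' protocols, so amplification can shape the levels, and read counts without molecular identifiers are not independent molecules. RefSeq names matched 24387 of 24421 IDs, and 34 unnamed IDs held 0.0244% of any library or less.

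All 11 libraries entered 1 fit by edgeR's quasi-likelihood test (edgeR 4.0.16, R 4.3.3, TMM scaling, filterByExpr, robust dispersion) with 4 group means and 7 residual degrees of freedom. It tested 13711 genes with Benjamini-Hochberg adjustment. SE came from the F statistic, CPM are TMM scaled, and intervals are at 95%. The procedure was tested on simulated data. Members, lists, tests and alternatives were chosen with earlier results of these data known. The text names the 8 genes, Ldha, from each related list up to 3 called genes per comparison and direction with the smallest p and a mean of at least 5 CPM (fewer were used), and the 2 genes nearest each member in pattern. Others were named after their values were seen: Foxo1, Fyco1 as the gene around Cxcr6, and marker genes. Some listed genes are not reported here, and the lists were counted without them.

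Same-numbered KO and WT libraries deviated together at D2 (correlations across genes of 0.217, 0.198 and 0.114). The main fit did not use the numbers, and only the fits with a replicate block treated them as pairing. At D0 the 2 shared numbers gave 0.0275 and 0.410, too few pairs to decide. A block within days fits KO D0 replicate 1 by itself, because WT D0 has no replicate 1. That library then adds nothing to the genotype comparison at D0. If samples of 1 group are not separate mice, p-values measure technical spread.

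Alternatives were DESeq2 size factors (RLE), the Wald test of DESeq2 1.42.0, a stricter filter (5 mean CPM or more) or none, libraries of the compared groups alone, replicate blocks, offsets for transcript GC, and each library left out in turn. The offset for the GC-rich stretch (highest GC in 100 bases) was added after seeing the data.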

Additional observations from a re-analysis of the deposited data

How the results depend on the processing

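The counts of called genes by day, 7 of 8 in KO and 8 of 8 in WT, stayed within 6 to 8 under every alternative run, and S1pr1, S1pr5, Klf2, Cxcr3 and Cx3cr1 fell in all of them. The count at D2 between genotypes, 1 of 8, was 4 with the replicate block, 2 with the GC offset, 5 with the block and GC offset and 4 with the block and the offset for the GC-rich stretch, and 1 without any 1 library. The count at D0, also 1, was 2 with the replicate block (1.47% of all tested genes called), 0 with at least 5 CPM, 0 with only the compared groups, and 0 to 1 with 1 library left out. The count for the difference by genotype, 0, was 3 with the replicate block (Cx3cr1 0.65, Ccr2 0.94 and S1pr5 -1.13; 19.1% of all tested genes called), 3 with the block and GC offset, 1 with the block and the offset for the GC-rich stretch, and 0 without any 1 library. The block also gave Ccr2 -0.86 at D0 (adjusted p = 0.0417), from replicates 2 and 3 alone. The D0 part of the blocked differences by genotype has the same limit. A block across days changed no count. The cause was not tested.

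Small log2 fold changes turned sign. For KO against WT at D2, Cxcr6 was 0.0688 with RLE scaling, 0.0664 with DESeq2, 5e-04 with only the compared groups, 0.095 with the GC offset and 0.0847 with the block and GC offset; Klf2 was -0.0022 with no filter; and Ccr2 was -0.036 with the offset for the GC-rich stretch and -0.0315 with the block added. For KO against WT at D0, S1pr5 was 0.12 with the replicate block and 0.0648 with the block and the offset for the GC-rich stretch, Cxcr3 was -0.0051 with the block across days, and Cxcr6 was 0.0112 with the offset for the GC-rich stretch. For the difference by genotype, Klf2 was 0.39 with the GC offset, 0.425 with the block added, 0.10 with the offset for the GC-rich stretch and 0.0241 with the block added, and Cxcr6 was -0.15 and -0.056 with the last pair of settings.

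With 1 library left out, sign changes were seen for KO against WT at D2 in Klf2 (-0.17 to 0.10), Cx3cr1 (-0.0273 to 0.92), Ccr2 (-0.0325 to 0.19) and Cxcr6 (-0.19 to 0.13), and at D0 in Cxcr3 (-0.10 to 0.29), Cxcr6 (-0.71 to 0.56) and S1pr5 (-0.60 to 0.22). They were also seen for D2 against D0 in Ccr2 in KO (-0.485 to 0.0809), and for the difference by genotype in S1pr1 (-0.13 to 0.40), Cxcr4 (-0.0444 to 0.77) and Cxcr6 (-0.59 to 0.67). Leaving out a WT D0 library leaves that group with 1, which is assumed to vary like the others. At D2 S1pr1 rests on 13 to 34 counts per library, which limits what could be seen between genotypes there.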
